A study of Rattus norvegicus with 4 samples.

Results

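In the rat left ventricle 3 genes of the connexin family were followed: Gja1, which encodes connexin 43, Gja4, which encodes connexin 37, and Gja5, which encodes connexin 40. Their members were all probe sets of an Affymetrix rat genome array whose platform annotation names 1 of these 3 genes, which gave 5 of 8799 probe sets. Gja1 and Gja4 had 1 probe set each and Gja5 had 3. The 1426 probe sets for which the annotation gave no symbol were not searched for these genes. A further probe set of Gja1 or Gja4 among them would have been missed, and the values of each rest on 1 probe set. Total RNA from the ventricle had been hybridised to 4 arrays, 1 for each of 4 groups. The groups were Sprague Dawley rats as controls (SD control), double transgenic rats that overexpress human renin and human angiotensinogen (dTGR), dTGR given losartan, which blocks type 1 angiotensin receptors, and terminal heart failure. The labels describe the transgenic rats as dying young of organ damage, with high blood pressure, an enlarged heart and proteinuria, and all 4 samples, the control included, carry that text. The title of the terminal sample names no genotype. The labels give no age, dose, transgene promoter, number of animals behind an array or pooling. With 1 array per group there is no replicate error and no test, so each difference below is a description of these arrays.

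Connexins are membrane proteins that assemble into hexameric half-channels. Half-channels of adjoining cells dock to form gap junction channels, through which ions and small molecules pass. Connexin 43 is the main gap junction protein of working ventricular myocytes, where it lies at the intercalated disc and carries the electrical impulse from cell to cell. Connexin 40 is found in the atria, in the ventricular conduction system and in arterial endothelium, and connexin 37 is mainly a protein of endothelium. In a ventricle the 3 transcripts come from myocytes, conduction cells and endothelium, and arterial endothelium can hold both of the latter connexins.

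The stretch upstream of each start site is shown as a description. All 3 genes had their lowest value on the losartan array, as did 20.7% of the 2584 genes measured on all arrays. For both measured Gja5 probe sets that value was under the next array by only 0.19 and 0.05 on the log2 scale. The part of these stretches in the values was not tested. Each stretch comprises the 250 bases before the RefSeq start, in GRCr8, read 5′ to 3′ on the strand of the gene. Gja1 lies at chr20:36302314-36302563 on the plus strand, Gja4 at chr5:144920325-144920574 on the minus strand and Gja5 at chr2:187290977-187291226 on the plus strand. Capitals mark matches to 5 motifs.
Gja1: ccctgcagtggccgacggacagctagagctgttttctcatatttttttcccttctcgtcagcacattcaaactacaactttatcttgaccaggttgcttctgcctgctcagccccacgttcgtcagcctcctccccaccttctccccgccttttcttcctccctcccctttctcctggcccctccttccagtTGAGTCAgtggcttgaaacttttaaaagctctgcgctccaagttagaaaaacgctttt
Gja4: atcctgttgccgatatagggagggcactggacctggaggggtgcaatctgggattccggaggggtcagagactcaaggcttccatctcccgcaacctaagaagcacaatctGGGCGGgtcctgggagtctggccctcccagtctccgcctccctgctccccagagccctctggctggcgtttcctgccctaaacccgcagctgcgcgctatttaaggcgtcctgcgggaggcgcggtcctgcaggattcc
Gja5: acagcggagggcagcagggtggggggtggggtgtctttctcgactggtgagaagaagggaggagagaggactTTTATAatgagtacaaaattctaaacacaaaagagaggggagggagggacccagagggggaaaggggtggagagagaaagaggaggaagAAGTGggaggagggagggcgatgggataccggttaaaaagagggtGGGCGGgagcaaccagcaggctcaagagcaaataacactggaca
The motifs were the GC box GGGCGG, the AP-1 motif TGANTCA, the TATA box TATAAA, the NKX2-5 core AAGTG and the T-box half-site GGTGTGA, searched on both strands. No matches of different motifs overlapped. The Gja1 stretch held 1 AP-1 match, TGAGTCA, from 58 to 52 bases before the start. The AP-1 motif was present in 6.34% of 33469 rat promoters of this length. The Gja4 stretch held 1 GC box, present in 30.5% of promoters. The Gja5 stretch held 1 GC box, 1 NKX2-5 core (40.6% of promoters) and 1 TATA box match on the opposite strand (12.9% of promoters). The T-box half-site was in 3.22% of promoters and matched in none of the 3 stretches. The GC content was 51.2% for Gja1, 63.2% for Gja4 and 54.8% for Gja5, beside a median of 51.2% over all promoters. These matches describe letters, not occupied sites.

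Intensities are on a linear scale after each array was brought to a common trimmed mean. A value under 26.0, the 40th percentile of all values, was set to that floor. A gene was called higher or lower when at least 1 of both arrays was above the floor and the difference was at least 2-fold. Genes with several probe sets gave the only yardstick of measurement error, the SD of the log2 difference among probe sets of 1 gene, which was 0.51 to 0.60 over the 6 comparisons. It covers differences between probes and not between animals.

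Gja1 was highest in the control ventricle and lowest in the losartan-treated one. Its probe set (rc_AI029183_s_at) had a scaled intensity of 278.0 in SD control, 174.3 in dTGR, 153.5 in terminal heart failure and 47.0 in losartan-treated dTGR. The 3 arrays other than losartan lay within a span of 153.5 to 278.0, and the losartan array lay well under them but above the floor. In that order, dTGR and terminal heart failure were the only neighbours closer than the probe set spread (0.18 on the log2 scale, beside an SD of 0.56).

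**Figure D1:**
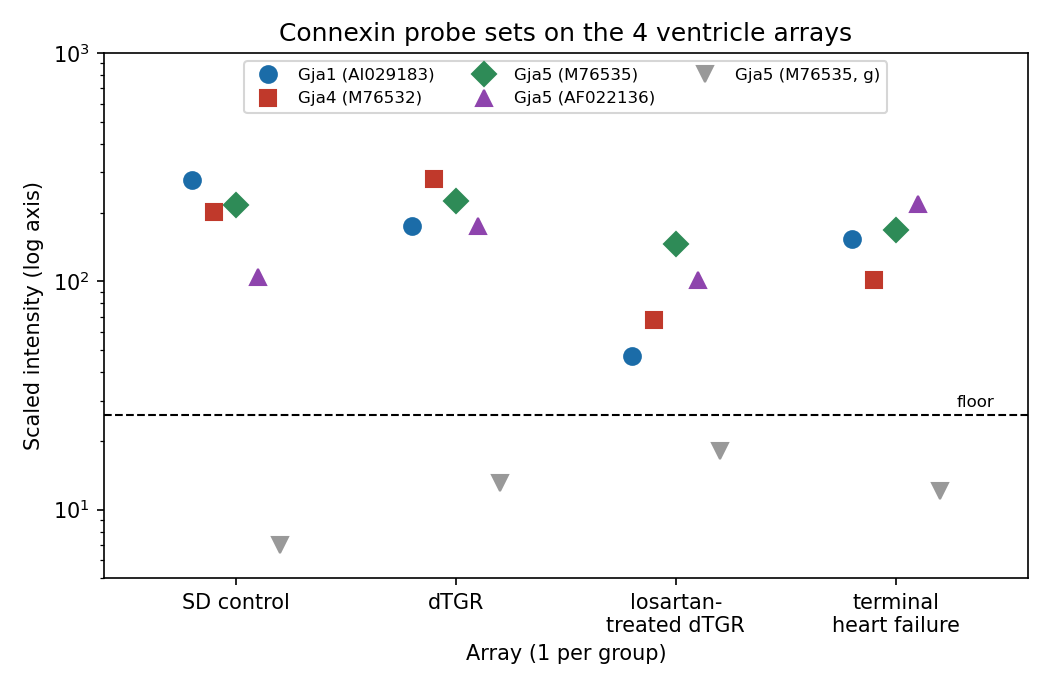
Scaled intensity (log axis) of the 5 connexin probe sets on the 4 arrays, 1 point per array, with the floor of 26.0 as a dashed line; points of an array are set side by side for legibility. Gja1 spans 278.0 in SD control to 47.0 on the losartan array, Gja4 spans 280.5 in dTGR to 67.6 on the losartan array, and the grey Gja5 probe set lies under the floor on every array.

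Losartan-treated dTGR differed from SD control in Gja1 by -2.56 on the log2 scale, 5.92-fold lower. Among the 3394 genes measured in this comparison, 0.0884% had a more negative difference. Gja1 on the losartan array was also 3.71-fold lower than in untreated dTGR (log2 difference -1.89) and 3.27-fold lower than in terminal heart failure. These 3 differences were 3.05 to 4.95 times the probe set SD. The terminal array was of the same chip lot as the losartan array but was hybridised on another day. The arrays of SD control and dTGR were of another lot. From Gja1 alone, fewer cells of a type and less RNA per cell cannot be told apart in whole tissue. In the same comparison with SD control the 10 cardiomyocyte markers had a median of 0.31 (-0.00 after quantile normalization), beside -0.00 over all genes. The lowest of them, Ryr2, was at -1.04. The part of cell number in the Gja1 value was not tested.

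Without losartan, Gja1 differed less. It was 1.59-fold lower in dTGR than in SD control (log2 difference -0.67) and 1.81-fold lower in terminal heart failure (-0.86), both short of 2-fold. In these comparisons 13.5% and 11.5% of the genes measured had a more negative difference. Terminal heart failure and dTGR differed by -0.18, beside a median of -0.18 over all genes. After scaling to a common median this difference was 0.11, so its sign was not settled.

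Gja4 was highest in dTGR and, like Gja1, lowest on the losartan array. Its probe set (M76532cds_at) had a scaled intensity of 280.5 in dTGR, 200.3 in SD control, 100.9 in terminal heart failure and 67.6 in losartan-treated dTGR. The arrays of dTGR and SD control were the higher pair and those of terminal heart failure and losartan the lower pair. The higher pair shared 1 chip lot and the lower pair another, so for Gja4 the order of the arrays and the lot cannot be told apart.

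On the losartan array Gja4 was 4.15-fold lower than in dTGR (log2 difference -2.05) and 2.96-fold lower than in SD control (-1.57). Of the genes measured, 0.521% and 1.15% had a more negative difference. Terminal heart failure was 2.78-fold lower than dTGR (-1.47) and 1.99-fold lower than SD control (-0.99), the latter at the edge of the 2-fold limit and not called. Within a lot the differences were smaller. Gja4 was 1.40-fold higher in dTGR than in SD control and 1.49-fold higher in terminal heart failure than on the losartan array, log2 differences of 0.49 and 0.58 beside probe set SDs of 0.53 and 0.56.

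For Gja5 the order of the arrays depended on the probe set. The probe set with the highest mean (M76535cds_at) had a scaled intensity of 224.5 in dTGR, 214.9 in SD control, 166.9 in terminal heart failure and 145.9 in losartan-treated dTGR. All 3 steps of that order were smaller than the probe set spread, and the highest array exceeded the lowest 1.54-fold. Over the 2584 genes above the floor on all 4 arrays, the median of this ratio was 1.76.

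The second Gja5 probe set (AF022136_at) had a scaled intensity of 217.1 in terminal heart failure, 174.7 in dTGR, 104.9 in SD control and 101.2 in losartan-treated dTGR. Here both untreated disease arrays were above the other pair. Terminal heart failure was 2.07-fold higher than SD control and 2.15-fold higher than losartan-treated dTGR, log2 differences of 1.05 and 1.10. dTGR was 1.67-fold higher than SD control (0.74) and 1.24-fold lower than terminal heart failure.

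The third Gja5 probe set (M76535cds_g_at), built on the same accession as the first, lay under the floor on every array, at 7.01 to 18.0, and gives no difference. Between both measured probe sets, the differences of terminal heart failure from SD control stood 1.41 apart on the log2 scale, one -0.36 and the other 1.05. The median gap of 791 genes with several measured probe sets was 0.41 in this comparison, and 93.4% of them had a smaller gap. Opposite signs were found in 31.0% of these genes. In losartan-treated against untreated dTGR both probe sets gave a lower value for losartan, -0.62 and -0.79, with a gap of 0.17. That was the closest of the 6 comparisons, and neither value reached 2-fold.

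**Figure D2:**
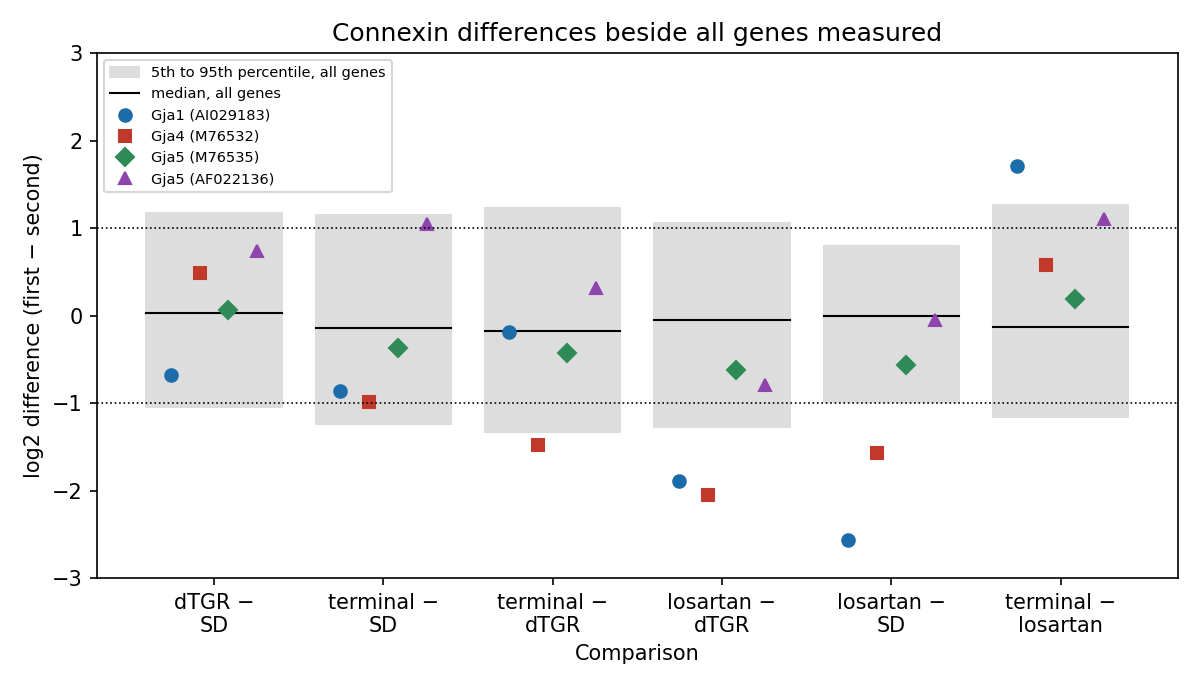
Log2 difference (first minus second array) of the 4 connexin probe sets above the floor in the 6 comparisons, with the 5th to 95th percentile of all genes measured as a grey band and their median as a line; dotted lines mark 2-fold. Gja1 and Gja4 lie under the band in both losartan comparisons with SD control and dTGR, at -2.56 and -1.57 and at -1.89 and -2.05, while both Gja5 probe sets shown stay inside every band.

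Counted by gene, with the brightest probe set standing for each, the 3 connexins gave 0 calls in dTGR against SD control, where 13.6% of all genes measured were called (7.69% higher and 5.87% lower). Terminal heart failure against SD control likewise gave 0, with 14.8% of genes called (6.38% higher and 8.40% lower). Terminal heart failure against dTGR gave 1 lower gene (Gja4), where 19.5% were called (7.69% higher and 11.8% lower). Losartan-treated against untreated dTGR gave 2 lower genes (Gja1 and Gja4), where 15.4% were called (5.90% higher and 9.50% lower). Losartan-treated dTGR against SD control gave the same 2 lower, where 7.10% were called (2.24% higher and 4.86% lower). These comparisons share the losartan array. Terminal heart failure against losartan-treated dTGR gave 1 higher gene (Gja1), where 14.8% were called (7.44% higher and 7.35% lower).

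The balance of higher and lower calls over all genes moved with the scaling, mostly where dTGR was compared. Higher genes made up 56.7% of the calls in dTGR against SD control, and 29.4% after scaling to a common median or 46.4% after quantile normalization. In terminal heart failure against dTGR these shares were 39.4%, 66.3% and 49.9%, with 52.7% after cyclic loess. In losartan-treated against untreated dTGR they were 38.3%, 61.2% and 49.2%. Cyclic loess gave 56.5% in place of 43.2% in terminal heart failure against SD control, and 43.2% in place of 31.5% in losartan-treated dTGR against SD control. The median of the 3 connexins in dTGR against SD control was 0.06, beside 0.03 over all genes. For terminal heart failure it was -0.86 against SD control and -0.43 against dTGR, beside -0.14 and -0.18 over all genes. For losartan-treated dTGR it was -1.89 against untreated dTGR and -1.57 against SD control, beside -0.05 and -0.00. For terminal heart failure against losartan-treated dTGR it was 0.58, beside -0.12. The losartan array held the lowest value of all 3 genes, and of 20.7% of the 2584 genes above the floor on all arrays. The terminal array held the lowest value of 37.5% of those 2584 genes.

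Several properties also differed between the arrays. Signal from the 3′ end over that from the 5′ end was highest on the losartan array, 2.17 for the Gapdh control and 2.26 for actin, where the other arrays had 1.28 to 1.73 and 1.46 to 2.07. Its actin probe set for the middle of the transcript had an intensity of 1105 beside 2575 to 3070 on the others, while the corresponding Gapdh probe set (10721) lay within their range of 9572 to 11465. The record of the dTGR array names another fluidics protocol. It has 0 cycles of the first wash, 0 of the second and 0 seconds of first stain, where the others have 10, 4 and 600. Whether these zeros are settings that were used or fields left unfilled cannot be told from the record. The terminal array was run on a separate day. The part of these in the connexin values was not tested. Of 15281 deposited values from 1 to under 32, 13625 have decimals of the form of a month, which touches none of the 4 connexin probe sets above the floor.

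Other members of the family were thinly covered. Of 20 other connexins and pannexins, 6 were on the array and 5 exceeded the floor on at least 1 array. Gja3, known as the lens connexin 46, had an intensity of 108.4 in dTGR, 80.5 in SD control, 63.3 on the losartan array and 38.8 in terminal heart failure, where it was 2.07-fold lower than in SD control and 2.79-fold lower than in dTGR. Gjb1, the connexin 32 of liver and Schwann cells, was 126.8 in dTGR and 54.1 to 86.2 on the other arrays, and terminal heart failure was 2.34-fold lower than dTGR. Unlike Gja1 and Gja4, both had their lowest value in terminal heart failure, as did 37.5% of the 2584 genes above the floor on all arrays. Gjb5, a connexin of skin, stayed between 110.6 and 151.2. Gja6, the rodent connexin 33 of testis, was 30.0 to 39.1 on 3 arrays and under the floor in terminal heart failure. Gjb2, the connexin 26 of cochlea and liver, was above the floor only in dTGR (41.1), and Gjd2, the neuronal connexin 36, was under it throughout. The list had 0 genes higher and 0 lower on the losartan array than in SD control, with a median of 0.29 over 4 genes. In that comparison 7.10% of all genes measured were called.

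The disc in which connexin 43 sits was also measured. Of 22 intercalated disc genes, 7 were on the array and 6 were above the floor. On the losartan array 0 of these 6 differed 2-fold from SD control (median -0.26), where 7.10% of all genes measured were called. Tjp1, which encodes the scaffold ZO-1 that binds the tail of connexin 43, had an intensity of 691.1 on the losartan array, 576.2 in SD control, 393.7 in terminal heart failure and 305.1 in dTGR. The losartan value was 2.27-fold higher than that of dTGR, where Gja1 was 3.71-fold lower. Cdh2, the N-cadherin of the adherens junction, was 718.9 in terminal heart failure beside 346.4 to 396.8 on the other arrays. Jup, the plakoglobin of desmosomes and adherens junctions, stayed between 423.1 and 511.1. Des, the muscle intermediate filament protein anchored at the disc, was 2.12-fold lower on the losartan array than in dTGR, as was Ank3, the ankyrin that anchors sodium channels, 2.45-fold, though not all of its 6 probe sets had that sign. Fxyd1, or phospholemman, a regulator of the sodium pump rather than a junction protein, was 2.12-fold lower in terminal heart failure than in dTGR.

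Among 25 kinases and partners of connexins, 18 were on the array. Over all genes measured, 4.86% were 2-fold lower on the losartan array than in SD control and 2.24% were higher. Of 15 measured kinases and partners, 3 were lower there and 0 were higher. These were Prkaca, the catalytic subunit of protein kinase A, with a log2 difference of -1.73, Cav1, the caveolin of endothelial caveolae, with -1.16, and Prkce, protein kinase C epsilon, which phosphorylates connexin 43, with -1.06. In terminal heart failure Cav1 and Prkaca were lower still, by -1.98 and -1.90 against SD control. Src, a tyrosine kinase that closes connexin 43 channels, was 79.0 in dTGR and 36.3 to 40.1 on the other arrays. Nedd4, a ubiquitin ligase of connexin 43, was 449.7 in terminal heart failure and 2.15-fold higher there than on the losartan array. Ptpn6 and Camk2d, a phosphatase and a calmodulin kinase, were lower in terminal heart failure than on the losartan array, by -1.02 and -1.18.

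Of 19 transcription factors known to act on connexin promoters, 8 were on the array and above the floor. Of these 8, 0 differed 2-fold on the losartan array from SD control or from dTGR, with medians of -0.32 and -0.39. The shares of all genes called in these comparisons were 7.10% and 15.4%. Fos, a subunit of AP-1, had an intensity of 1061 in terminal heart failure and 133.2 to 227.2 on the other arrays, a log2 difference of 2.41 from SD control. Gja1 had -0.86 in that comparison. Its upstream stretch has an AP-1 match, as have 6.34% of promoters, and a link between Fos and Gja1 was not tested. Gata4, a cardiac zinc finger factor, was 2.05-fold lower in terminal heart failure than in SD control. Creb1, which mediates cyclic AMP responses, was 2.13-fold lower in terminal heart failure than in dTGR, at an intensity of 26.1 next to the floor.

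Markers of the cells that make connexins were set beside them. The cardiac label held, since all 10 of the cardiomyocyte markers on the array were above the floor on all arrays, with a summed intensity of 101993 in SD control, 191936 in dTGR, 131985 on the losartan array and 92502 in terminal heart failure. Their median in dTGR against SD control was 0.75, and -0.15 after quantile normalization. On the losartan array 1 of 10 was 2-fold lower than in SD control, the ryanodine receptor Ryr2, at 53.5 beside 110.3. Against dTGR 1 of 10 was lower (Ryr2 again), with a median of -0.46 that became 0.16 after quantile normalization. In terminal heart failure 5 of 10 were lower than in dTGR (Tnnt2, Tnni3, Myl2, Myl3 and Actc1, all of the sarcomere), a median of -0.96 that became -0.05 after quantile normalization. Gja1 had -0.18 in the same comparison. Over all genes measured, 4.86% were lower on the losartan array than in SD control and 9.50% lower than in dTGR. Lower in terminal heart failure than in dTGR were 11.8%.

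Of 29 endothelial markers, 17 were on the array, 16 exceeded the floor on at least 1 array and S1pr1 did not. Their summed intensity was 3582 in SD control, 4171 in dTGR, 3846 on the losartan array and 5336 in terminal heart failure. Of 14 measured against SD control, 1 was 2-fold higher on the losartan array and 2 were lower, with a median of 0.12 that was -0.10 with the median of the probe sets per gene. Among all genes measured, 2.24% were higher and 4.86% lower. Gja4 had -1.57. Flt1, a receptor of vascular endothelial growth factor, was lower there, at 34.5 beside 80.9 in SD control, and Selp, the P-selectin of activated endothelium, was 36.2 beside 74.7. Kdr, the main receptor of that growth factor, was higher, at 246.0 beside 110.7. Pecam1, an adhesion protein of all endothelium, was 150.4 beside 140.9, and Nos3, the endothelial nitric oxide synthase, 100.7 beside 90.8.

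In terminal heart failure Pecam1 was 2.20-fold, Fabp4, a fatty acid carrier of capillaries, 2.23-fold and Selp 2.13-fold higher than in dTGR, while Kdr was 3.50-fold lower and Icam2, an endothelial adhesion protein, 2.30-fold lower. Gja4 was 2.78-fold lower in that comparison. Aqp1, the water channel of capillaries, was 2.33-fold higher than in SD control. Endothelial markers lay on both sides of dTGR. The 7 arterial endothelial markers on the array, of 12 in the list, had 6 above the floor, with a median of 0.06 on the losartan array against SD control (-0.05 with the median of the probe sets) and 0 of 6 called. In that comparison 7.10% of all genes were called. Acvrl1, an arterial receptor of the TGF-beta family, was lowest in dTGR (46.7 beside 100.3 to 108.9), where Gja4 was highest.

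**Figure D3:**
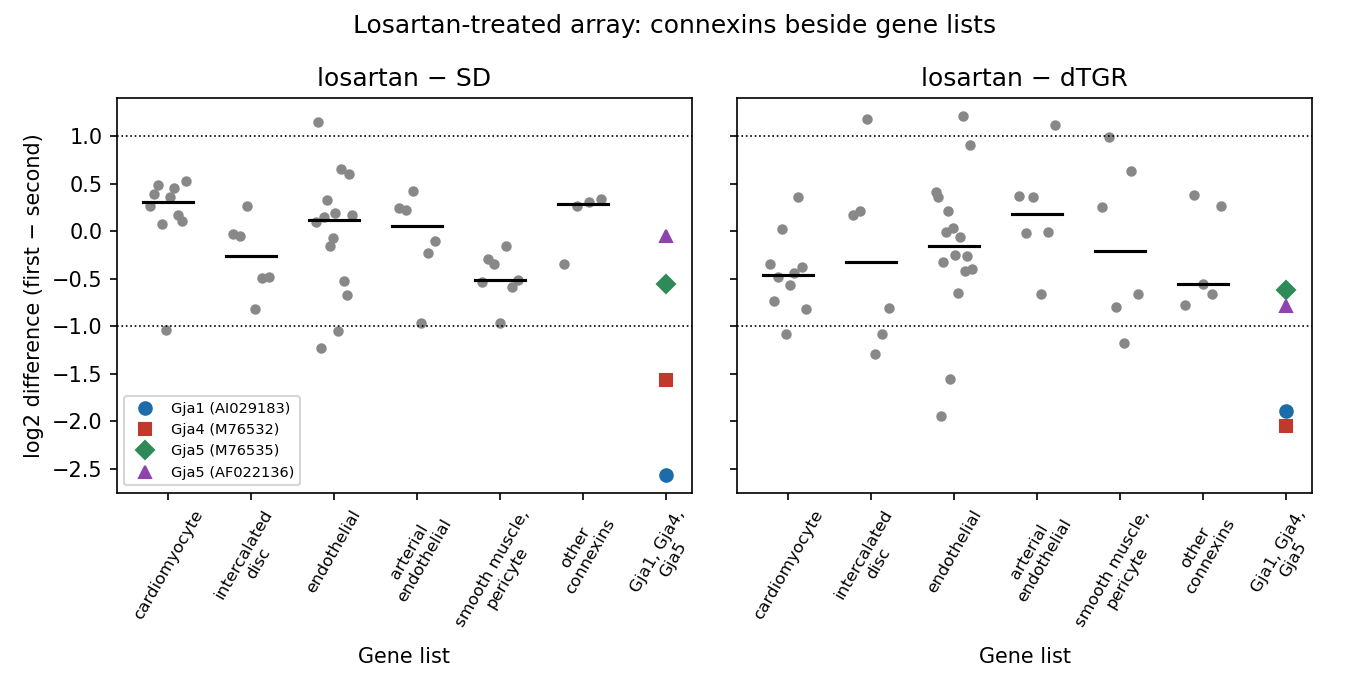
Log2 differences of losartan-treated dTGR from SD control (left) and from dTGR (right) for genes of 6 lists, namely cardiomyocyte, intercalated disc, endothelial, arterial endothelial, smooth muscle and pericyte, and other connexins (grey points, 1 per measured gene, with list medians as bars) and for the connexin probe sets; dotted lines mark 2-fold. Gja1 at -2.56 and Gja4 at -1.57 lie under every gene of these 6 lists on the left, and Gja4 at -2.05 does so on the right. Of the lists not plotted, kinases and partners hold Prkaca at -1.73 on the left, under Gja4.

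Smooth muscle, conduction and atrial markers completed the set. All 7 smooth muscle and pericyte markers on the array were measured. On the losartan array their median was -0.52 against SD control with 0 called, beside 7.10% of all genes. Myh11, the smooth muscle myosin, and Kcnj8, a potassium channel of pericytes, were 55.7 and 84.8 in dTGR beside 135.5 and 197.3 in SD control. The conduction system, where connexin 40 is expressed, was poorly covered, with 4 of 7 markers on the array and 1 above the floor on all arrays. Kcne1, a potassium channel subunit, was 107.4 in terminal heart failure and under the floor in SD control. Atrial markers, 4 of 5 on the array, had medians of 0.61 in terminal heart failure and 0.74 in dTGR against SD control, with 1 gene called in each, Nppa, a natriuretic peptide also made by the loaded ventricle (11731 and 22028 beside 1759). The shares of all genes called in these comparisons were 14.8% and 13.6%. Myl7, the atrial light chain, was 183.1 in terminal heart failure, 118.2 in dTGR, 102.9 in SD control and 64.9 on the losartan array, the same order as the second Gja5 probe set. The losartan array differed from SD control by only -0.05 for that probe set, beside a probe set SD of 0.52, and by -0.67 for Myl7. The other atrial markers above the floor on all arrays, Nppa and Pam, an enzyme that amidates peptides, did not share that order. Both were highest in dTGR and lowest in SD control, and terminal heart failure differed from dTGR by -0.91 for Nppa and -0.35 for Pam, beside 0.63 for Myl7. The part of atrial tissue in that probe set was not tested.

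Fibroblasts and macrophages also carry connexin 43. All 11 fibroblast markers were on the array, and on the losartan array they had a median of 0.06 against SD control with 0 of 10 called. In terminal heart failure Col1a1, Col3a1 and Lum, which encode fibrillar collagens and a collagen-binding proteoglycan, were lower than SD control by -1.10, -2.01 and -1.67, and Postn, a matrix protein of activated fibroblasts, was higher. Of 13 macrophage markers, 8 were on the array and Csf1r was under the floor throughout. In terminal heart failure 4 of 7 were higher than SD control (Lyz2, Lgals3, C1qb and C1qc) and 1 was lower (Cd74), where Gja1 had -0.86. On the losartan array 0 of 7 differed 2-fold from SD control, where 7.10% of all genes measured were called. For terminal heart failure against SD control, 6.38% of all genes were higher and 8.40% lower.

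The genes closest to each connexin over the 4 arrays were found by the root mean square distance between log2 profiles centred on their own mean. The search covered 2572 genes above the floor on all arrays, with predicted genes and the connexin itself left out. The genes closest to Gja1 were Sardh, Maz, Bdkrb1, Emp1 and Cops7a, at distances of 0.18 to 0.30. On the losartan array Sardh (26.1) and Bdkrb1 (28.1) lay next to the floor of 26.0. Emp1, a membrane protein of epithelia, had an intensity of 44.4 on the losartan array and 144.8 to 241.7 on the others. For Gja4 they were Pde3a, Atp4a, Cntfr, Ralgapa1 and Arrb2, at 0.14 to 0.23. Pde3a, a phosphodiesterase of heart and vessels that breaks down cyclic AMP, was 112.2 in dTGR, 87.0 in SD control, 52.0 in terminal heart failure and 32.1 on the losartan array. For the brighter Gja5 probe set they were Jak1, Lgals8, C7h8orf33, Ola1 and Colq, at 0.011 to 0.059, and for the second they were Csrp3, Gadd45a, Atosb, Gsk3b and Zfp36, at 0.068 to 0.11. Csrp3, a Z disc protein of muscle, was 5188 in terminal heart failure, 4351 in dTGR, 2602 on the losartan array and 2378 in SD control. Profiles of 4 points can come this close for many reasons, and no test was made. Among the connexins, Gja1 and Gja4 stood 0.58 apart, and both measured Gja5 probe sets stood 0.51 apart, hardly closer than probe sets of different connexins, which ranged from 0.55 to 0.93.

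**Figure D4:**
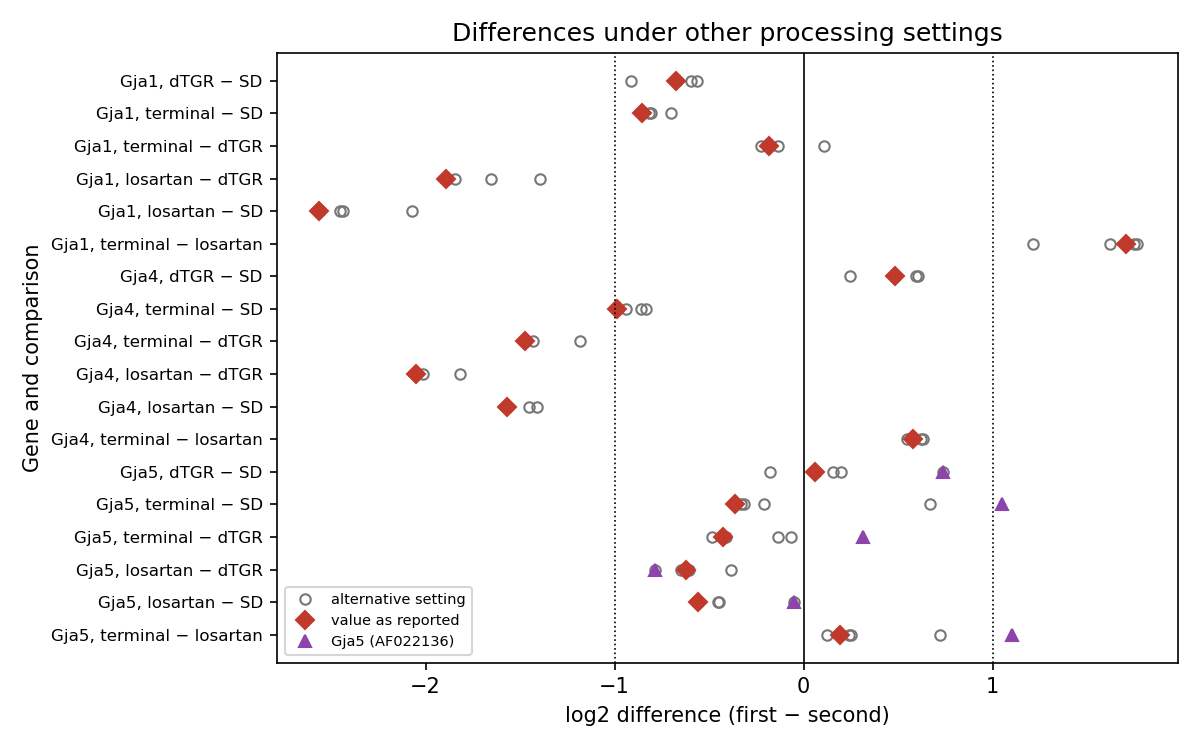
Log2 differences of the 3 genes in the 6 comparisons as reported (red diamonds), under 9 other processing settings (open circles) and, for Gja5, on the second probe set (purple triangles); dotted lines mark 2-fold. Gja1 and Gja4 stay past 2-fold in both losartan comparisons with SD control and dTGR, while Gja5 against SD control in terminal heart failure runs from -0.36 to 1.05. Several of the settings could hardly move Gja1 or Gja4.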

How the data were processed

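Total RNA of the rat left ventricle was measured on 4 arrays, 1 per group. The authors deposited 1 linear intensity per probe set and array, with the software not given in the sources used here. The deposited 2% trimmed means were 200.2 to 200.3. Arrays were scaled to the average of these and floored at the 40th percentile of all values (26.0) before the log2 transform. Out of 8799 probe sets, 7006 were used, after removal of 59 controls, 1426 lacking a symbol and 308 that name more than 1 gene. They stood for 4736 genes, each represented by its brightest probe set. Identifiers of 6985 probe sets matched the RefSeq gene table (GRCr8), and 0 symbols needed an update. Per the file headers of the instrument records, chip lot, fluidics and run day were taken as batches. Array numbers limit the precision, and no test was possible.

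The members and the gene lists were chosen with earlier results of these data known. Named genes were all connexin probe sets, other connexins above the floor, list members at least 2-fold different in any comparison with both arrays above the floor and no probe set of the other sign (otherwise the brightest 3), and the 5 nearest profiles per gene. Jup, Nos3, Ank3, Pam and the markers named for lying under the floor were added after their values were seen. Python 3.11.15, SciPy 1.17.1, and limma 3.58.1 under R 4.3.3 (quantile normalization and cyclic loess) were used. Alternatives covered scaling, floor, choice of probe set and the reading of low values. Protein sequences were not used here.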

Additional observations from a re-analysis of the deposited data

How the results depend on the processing

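Under 9 other settings of scaling, floor, probe set choice and reading of low values, the 18 differences of the 3 genes moved by less than the probe set SD in all but 6 of 168 recomputed values, counting 6 on the second Gja5 probe set, a setting added after seeing the data. No difference that had reached 2-fold changed sign. All 6 values that moved were of Gja5. Several settings could hardly move Gja1 or Gja4, so the count of 168 overstates what was varied for them. Each has 1 probe set, above the floor on all 4 arrays. A lower floor, no floor and the median of the probe sets therefore left their values as they were. The deposited trimmed means were already 200.2 to 200.3, and the reading of low values touched none of the measured connexin probe sets. With the median of the probe sets, Gja5 was 0.74 in dTGR and 0.67 in terminal heart failure against SD control. As the third probe set was at the floor, that median was the dimmer of both measured probe sets on each array. It was the first probe set in terminal heart failure and the second on the other arrays. The value of 0.67 therefore compares different probe sets, and neither probe set alone gave it. On the second probe set it was 0.74 and 1.05 in these, 0.31 in terminal heart failure against dTGR and 1.10 against losartan-treated dTGR, the values 1.05 and 1.10 being past 2-fold where the brighter probe set was not. Scaling to a common median shifted the median of all genes in dTGR against SD control from 0.03 to -0.19, gave 158 genes higher and 380 lower in place of 278 and 212 (terminal heart failure against dTGR 443 and 225 in place of 277 and 426, losartan-treated against untreated dTGR 340 and 216 in place of 215 and 346), and turned the sign of Gja5 there (-0.18). Gja1 on the losartan array against SD control ranged from -2.57 to -2.07, and Gja4 from -1.57 to -1.41, over the planned settings. The floor changed the gene counts of all 6 comparisons by over 1.5 times. In dTGR against SD control there were 858 higher and 537 lower genes with none, 580 and 377 with the 25th percentile and 59 and 77 with the 60th. In losartan-treated dTGR against SD control these were 509 and 508, 224 and 308, and 27 and 61, in place of 76 and 165. Of 756 recomputed list medians and gene counts, 63 moved, by over the probe set SD or 1.5 times. Some medians changed sign, among them those of the cardiomyocyte markers after quantile normalization, from 0.75 to -0.15 in dTGR against SD control and from -0.46 to 0.16 in losartan-treated against untreated dTGR. No paired analysis was possible because each group has 1 array. Leaving out a replicate was not possible for the same reason. The third Gja5 probe set was under the floor on every array and gave no value, while the brighter one was above the floor on all 4.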
